A study of Homo sapiens with 2 samples.

Results

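Interleukin-1 (IL-1) and the neutrophil-attracting chemokines were examined in BT549, a human cell line derived from a triple-negative breast carcinoma, with a mesenchymal shape. Cells made to overexpress the long non-coding RNA SNHG15, which is also the host transcript of a snoRNA, were set against BT549 cells with a control vector, both grown in the same serum-containing medium without any other treatment given in the labels. Each group held 1 library, and the labels do not say whether the lines were single clones. Differences below thus lack replicates, and p-values were not computed. Intervals (95%) reflect counting error alone. The 10 genes were chosen by symbol: the cytokines IL1A and IL1B, the receptor chains IL1R1 and IL1RAP, the CXC chemokines CXCL1, CXCL2, CXCL3, CXCL5 and CXCL8, and the CC chemokine CCL2. They are 10 of the 19029 genes of the table, and 9 of them, every one except IL1A, reached the mean of 1 CPM (the count scaled to the size of its library, here with TMM factors) set for comparison, as did 12934 genes in all. Each of these 9 was above 1 CPM in both libraries.

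IL-1 alpha and IL-1 beta bind the receptor chain IL1R1, which then recruits the accessory chain IL1RAP and, through the adaptor MYD88 and the IRAK kinases, activates the transcription factor NF-kappaB. CXCL1, CXCL2, CXCL3, CXCL5 and CXCL8 are ligands of the receptor CXCR2 on neutrophils, and their genes are textbook targets of IL-1 and NF-kappaB. CCL2 attracts monocytes through CCR2. In breast carcinoma, tumour cells can make these factors themselves and so draw myeloid cells into the tumour.

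The 5 CXCR2 ligand genes lie together on chromosome 4, over 358.8 kb from 73740506 to 74099293 (hg38), and their promoters share a sequence. RefSeq promoter windows of 300 bases (250 before to 50 after the transcript start, GRCh38.p14) were matched for 9 of the 10 genes, all but CCL2. The letters GGAATTTCC, the core of a kappaB element, were searched on both strands. Only this exact form was searched, so elements with other letters or outside the windows would be missed. They occurred once in the window of each of the 5 CXCR2 ligands, and in 0.461% of the 35116 windows of the whole table. The windows of IL1A, IL1B, IL1R1 and IL1RAP did not hold these letters. The following 30-base stretches show the match in each ligand gene, and in its cluster neighbour CXCL6, in capitals, read 5′ to 3′ on the strand of the gene.
CXCL1: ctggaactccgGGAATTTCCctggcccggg
CXCL2: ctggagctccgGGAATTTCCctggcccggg
CXCL3: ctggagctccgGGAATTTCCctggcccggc
CXCL5: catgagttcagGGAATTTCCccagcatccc
CXCL6: cctgagttcagGGAATTTCCccagcatccc
CXCL8: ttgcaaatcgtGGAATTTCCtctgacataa

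The stretch of CXCL1 is chr4:73869304-73869333 on the plus strand, and that of CXCL8 is chr4:73740467-73740496, also on the plus strand. Those of CXCL2 (chr4:74099254-74099283), CXCL3 (chr4:74038749-74038778) and CXCL5 (chr4:73998749-73998778) are on the minus strand, and that of CXCL6 (chr4:73836578-73836607) is on the plus strand. The match began 78 bases before the RefSeq start in CXCL1 and CXCL3, 77 in CXCL2, 90 in CXCL5, 89 in CXCL6 and 91 in CXCL8. Several deposited loci begin farther upstream than the RefSeq start, so that the stretches of CXCL2, CXCL3, CXCL5 and CXCL6 lie inside the deposited locus of their gene, and those of CXCL1 and CXCL8 before it. The flanking letters fell into the CXCL1, CXCL2 and CXCL3 form and the CXCL5 and CXCL6 form, with CXCL8 apart. Over the whole window, CXCL1 was 82.5% identical to CXCL3 and 71.9% to CXCL2, CXCL5 was 83.1% identical to CXCL6, and CXCL1 and CXCL8 shared 45.2%. Because CXCL1 was the most abundant of the ligands, the 250 bases before its start (chr4:73869143-73869392, plus strand) are shown with the same letters in capitals.
CXCL1 promoter: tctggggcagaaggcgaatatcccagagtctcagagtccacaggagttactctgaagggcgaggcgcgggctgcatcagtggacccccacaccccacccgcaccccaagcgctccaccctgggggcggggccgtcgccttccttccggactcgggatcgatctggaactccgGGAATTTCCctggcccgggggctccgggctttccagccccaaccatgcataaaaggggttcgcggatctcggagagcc

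The AP-1 and C/EBP letters searched were not common to the ligand genes. The AP-1 letters TGANTCA, searched on both strands, occurred in the windows of CXCL8 and IL1A, and in 7.71% of all windows. The C/EBP letters TTGCNNAA occurred in those of CXCL2, IL1B and IL1R1, and in 10.5% of all windows. These matches describe the letters in these windows and say nothing of binding. Further motifs were not searched, and sites that differ from the searched letters would be missed.

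The labels were checked with SNHG15 itself, at 34450 counts with SNHG15 overexpression and 466 with the vector. The libraries held 16570496 and 20799017 counts, and the median compared gene had 284 and 315. Mesenchymal line markers (7 of 7 with values) summed to 4599 CPM under SNHG15 overexpression and 5130 CPM with the vector, with 2 higher, 3 lower and 2 neither. By the 1.5-fold rule given below, these were 28.6% higher and 42.9% lower, against 13.3% and 12.2% of all compared genes. N-cadherin, CDH2, was 5.28-fold higher (4.12 to 6.82) and the matrix protein SPARC 1.78-fold higher (1.74 to 1.82). The surface glycoprotein THY1 was 2.004-fold lower (1.95 to 2.06), fibronectin, FN1, 1.80-fold lower (1.76 to 1.84) and the transcription factor ZEB1 1.70-fold lower (1.21 to 2.39), with THY1 and ZEB1 overlapping other genes. These markers differed beside the chemokines, and their part in that result was not tested. Of 8 epithelial and luminal markers, 4 had values to analyse, at 66.4 and 59.3 CPM in sum, nearly all of it from GATA3 (named after its values were seen), at 65.2 and 58.6 CPM.

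In the SNHG15 library 7 of the 9 compared genes were lower, 1 was higher and 1 was neither. A gene was counted where its ratio reached 1.5-fold and its interval excluded 1. By this rule 12.2% of the 12934 compared genes were lower and 13.3% higher. The lower genes were IL1B, CCL2 and the 5 CXCR2 ligands. The higher gene was IL1RAP, and IL1R1 was at the same level in both libraries within counting error. The median log2 ratio of the 9 genes, SNHG15 over vector with a prior count of 2, was −0.90, against 0.02 over all compared genes. The genes were chosen with these results known, so the count describes them and supports nothing further. In bulk RNA, fewer cells that make a message and less message per cell cannot be told apart.

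**Figure D1:**
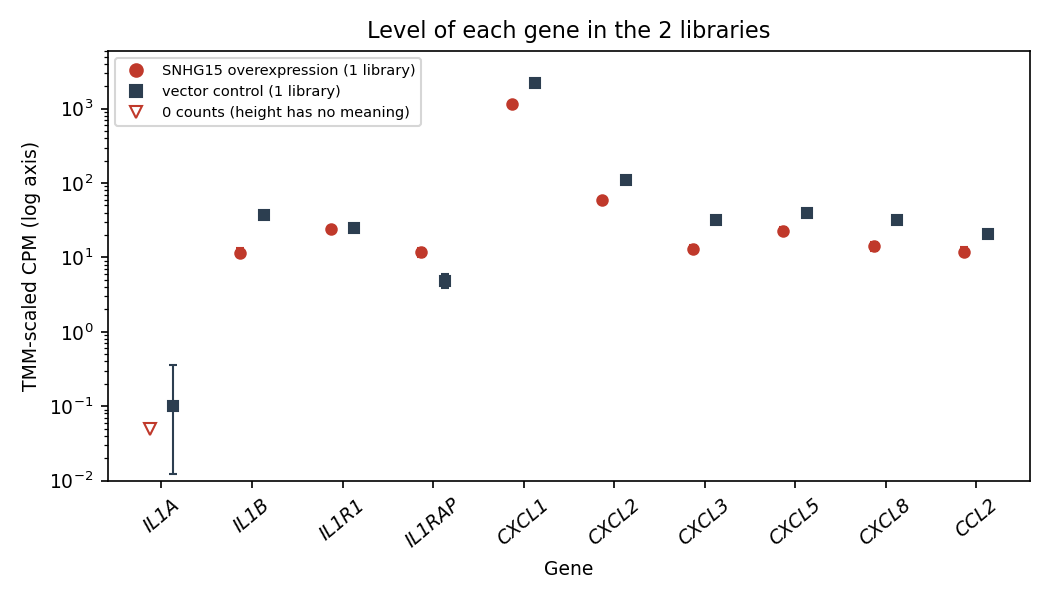
TMM-scaled CPM of the 10 genes (log axis) in the SNHG15 library (circles) and the vector library (squares), 1 library each, with exact 95% Poisson intervals as bars; the open triangle marks IL1A at 0 counts. CXCL1 stood at 1164 and 2211 CPM, far above the others, and IL1RAP was the compared gene with the SNHG15 library clearly above the vector library.

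Of the cytokines, IL1B, the secreted form of IL-1 that needs cleavage before release, had 200 counts (11.6 CPM) with SNHG15 overexpression and 735 counts (36.8 CPM) with the vector. It was 3.17-fold lower (2.71 to 3.73), and its log2 ratio of −1.66 placed it among the lowest 1.41% of the compared genes. It had the lowest ratio of the 9. IL1A, the form that acts from the cell membrane or dying cells, had 0 counts with SNHG15 overexpression and 2 with the vector. Both lie at or under the floor of 3 counts (0.174 and 0.150 CPM), so no fold was computed and a difference was not detectable at this depth. The 2 genes are neighbours on the minus strand of chromosome 2, IL1A (ENSG00000115008) at 112773915 to 112784590 and IL1B (ENSG00000125538) at 112829751 to 112836903.

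The receptor chains differed from the ligands in their ratios, at 1.87 (1.64 to 2.14) for IL1R1 and 4.58 (3.59 to 5.84) for IL1RAP relative to CXCL1. IL1R1 (ENSG00000115594, chromosome 2, 102064544 to 102179874, plus strand), the chain that binds IL-1, had 420 counts (24.3 CPM) against 493 counts (24.7 CPM). Its ratio was 0.986 (0.864 to 1.13), and its direction depended on the scaling, with a log2 ratio of −0.02 by TMM and 0.10 by library totals. IL1RAP (ENSG00000196083, chromosome 3, 190514051 to 190659750, plus strand), the accessory chain needed for signalling and shared with other receptors of the family, had 202 counts (11.7 CPM) against 97 counts (4.86 CPM). It was 2.41-fold higher (1.88 to 3.10), the highest ratio of the 9, and 4.35% of its 50-base words also occur in transcripts of other genes. The counts are per gene and do not separate the membrane form of IL1RAP from its soluble forms, which lack the signalling domain.

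CXCL1 (ENSG00000163739, 73869393 to 73871242, plus strand) was the most abundant of the 10 genes, with 20091 counts under SNHG15 overexpression and 44172 with the vector. Its FPKM value, which is scaled for length and was deposited by the authors, was 784 with SNHG15 overexpression and 1373 with the vector, rank 46 and rank 31 of all 19029 genes. In CPM it stood at 1164 against 2211 and was 1.90-fold lower (1.87 to 1.93).

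CXCL2 (ENSG00000081041, 74097035 to 74099293, minus strand), the closest relative of CXCL1 in function, had 1008 counts (58.4 CPM) against 2175 counts (108.9 CPM). It was 1.86-fold lower (1.73 to 2.01). CXCL3 (ENSG00000163734, 74036589 to 74038807, minus strand), the third member of this GRO group, had 224 counts (12.98 CPM) against 637 counts (31.9 CPM) and was 2.46-fold lower (2.11 to 2.87). The messages of the GRO group resemble each other, so that reads can be divided among them. Of the 50-base words of its GENCODE 29 transcripts, CXCL1 shared 4.81% with other genes, CXCL2 12.5% and CXCL3 6.01%, in each case with the other members of the group. The summed counts of the 3 genes were 21323 against 46984, a ratio of 0.525 (0.517 to 0.534). This sum does not depend on the division if each shared read was counted once, which the sources do not say.

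CXCL5 (ENSG00000163735, 73995642 to 73998779, minus strand), a CXCR2 ligand first known from epithelial cells, had 396 counts (23.0 CPM) against 792 counts (39.6 CPM). It was 1.73-fold lower (1.53 to 1.95). CXCL8 (ENSG00000169429, 73740506 to 73743716, plus strand), interleukin-8, which binds CXCR1 as well as CXCR2, had 242 counts (14.0 CPM) against 641 counts (32.1 CPM). It was 2.29-fold lower (1.97 to 2.66). CCL2 (ENSG00000108691, chromosome 17, 34255218 to 34257203, plus strand) had 207 counts (11.997 CPM) against 416 counts (20.8 CPM) and was 1.74-fold lower (1.47 to 2.06). None of the 10 genes overlapped another gene of the table.

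**Figure D2:**
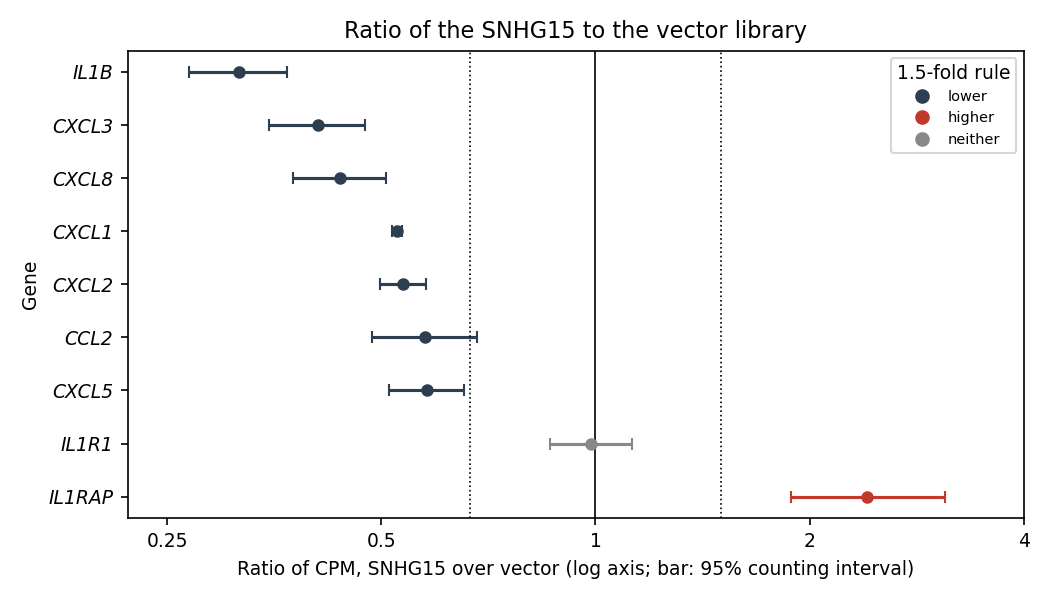
Ratio of CPM in the SNHG15 library over the vector library (log axis) for the 9 compared genes, with exact 95% counting intervals; the solid line marks 1 and the dotted lines 1.5-fold in either direction. IL1B (0.315) lies farthest to the left, CXCL5 (0.579) and CCL2 (0.576) closest to the 1.5-fold line, and IL1RAP (2.41) on the other side.

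The size of the difference was graded within the lower genes. Ratios of ratios, which do not depend on the scaling of the libraries, were computed for the 21 pairs of the 7 lower genes, and the interval excluded 1 for 14 pairs. IL1B was lower relative to each of the other 6, at 0.598 (0.511 to 0.700) relative to CXCL1. CXCL3 and CXCL8 formed the next step, at 0.773 (0.663 to 0.901) and 0.830 (0.715 to 0.963) relative to CXCL1. They did not differ from each other beyond counting error (0.931, 0.753 to 1.15). CXCL2 (1.02, 0.944 to 1.10), CXCL5 (1.10, 0.973 to 1.24) and CCL2 (1.09, 0.925 to 1.29) did not differ from CXCL1 beyond counting error. By a stricter rule, with the whole interval beyond 2-fold, 2 of the 9 genes were lower, IL1B and CXCL3, against 2.45% of all compared genes. CXCL8 fell just short, with an upper bound of 0.508 for its ratio. By the same stricter rule 0 of the 9 genes were higher, against 2.2% of all compared genes.

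Set against each other by FPKM, the levels kept nearly the same order in both libraries. From the top this was CXCL1, CXCL2 (26.7 FPKM with SNHG15 overexpression and 45.9 FPKM with the vector), CXCL5 (9.42 and 15.0 FPKM) and CXCL8 (5.09 and 10.7 FPKM). Below them in the SNHG15 library came CCL2 (3.76 FPKM), CXCL3 (3.45 FPKM) and IL1B (2.31 FPKM), and in the vector library CXCL3 (7.81 FPKM), IL1B (6.78 FPKM) and CCL2 (6.02 FPKM). CCL2 and CXCL3 in the SNHG15 library, and CXCL3 and IL1B as well as IL1B and CCL2 in the vector library, had overlapping counting intervals. The receptor chains were lowest of the compared genes, IL1R1 at 1.93 FPKM with SNHG15 overexpression and 1.81 with the vector, and IL1RAP at 0.527 and 0.202. The intervals of IL1B and IL1R1 overlapped in the SNHG15 library and not in the vector library.

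The makeup of the CXCR2 ligand pool was dominated by CXCL1. Of the summed FPKM of the 5 ligands, CXCL1 made up 94.6% with SNHG15 overexpression and 94.5% with the vector. CXCL2 followed with 3.22% and 3.16%. By counts, the share of CXCL1 was 91.5% (exact 95% interval 91.1 to 91.9) and 91.2% (91.0 to 91.5), that of CXCL3 1.02% (0.891 to 1.16) and 1.32% (1.22 to 1.42), and that of CXCL8 1.10% (0.968 to 1.25) and 1.32% (1.22 to 1.43). The 5 ligands together had 21961 counts against 48417, a ratio of 0.525 (0.517 to 0.534), and the 4 without CXCL1 had a ratio of 0.510 (0.483 to 0.539).

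The 5 CXCR2 ligand genes chosen from the chromosome 4 cluster were lower, whether on its plus or its minus strand. By the same rule 12.2% of all compared genes were lower. CXCL6, a further CXCR2 ligand between CXCL8 and CXCL1, had 17 counts (0.985 CPM) against 51 counts (2.55 CPM) and was 2.59-fold lower (1.47 to 4.79). It reached the mean of 1 CPM through the vector library, which favours a lower ratio, so it was not counted with the 5. PF4, the platelet factor gene next to CXCL5, had 0 counts against 4, with a ratio whose interval reached 1.75, and was not compared. Within 1 Mb on either side, 5 genes outside the chemokine family were compared, of which 1 was lower, 1 higher and 3 neither, with a median log2 ratio of −0.20. The lower gene was AREG and the higher one PARM1. AREG, at 2 counts against 63, reached the mean of 1 CPM through the vector library. The nearest of them, MTHFD2L, an enzyme of one-carbon metabolism next to CXCL2, had a ratio of 0.812 (0.698 to 0.944) and was named after its values were seen. Chromosome 4 as a whole (435 compared genes) had a median of 0.16, with 41 genes lower and 89 higher. Of all compared genes, 12.2% were lower and 13.3% higher. Around IL1A and IL1B, 19 other genes were compared, with 1 lower (RP11-65I12.1, a ratio of 0.574), 1 higher (PAX8, 1.54) and a median of −0.06. Around IL1R1, 5 were compared, with 0 lower, 2 higher (TBC1D8, 2.19, and MFSD9, 1.51) and a median of −0.19. These neighbours were named after their values were seen. Around CCL2, 7 were compared, with 0 lower and 0 higher and a median of −0.20, and around IL1RAP 3 were compared, with 0 lower and 0 higher and a median of 0.08.

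**Figure D3:**
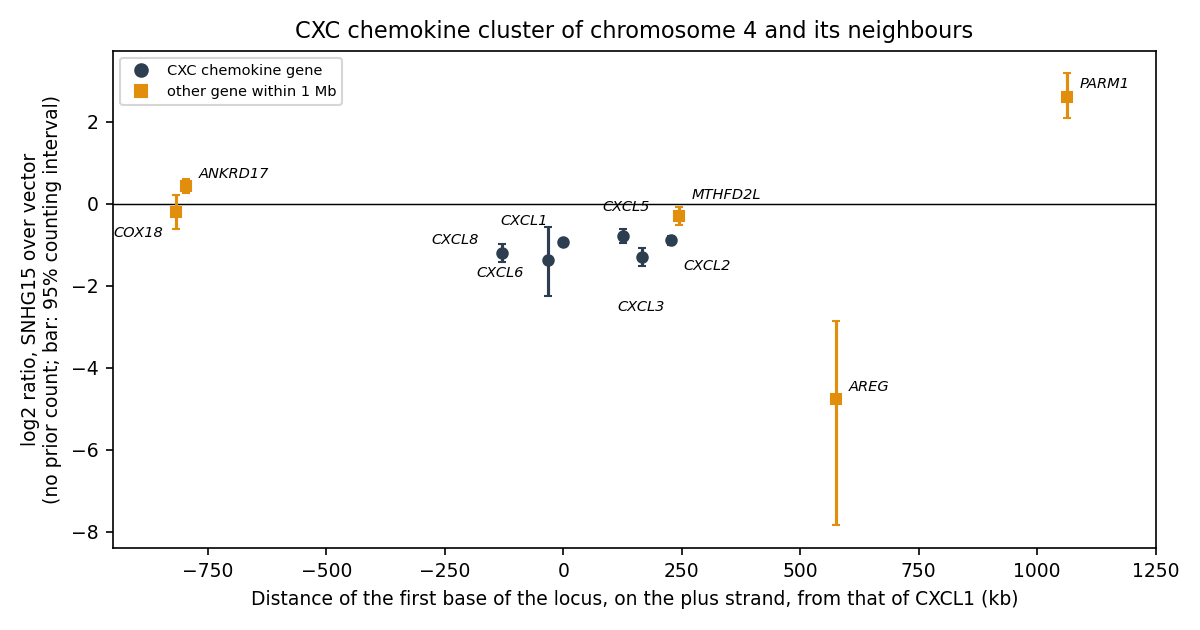
Log2 ratio without a prior count, SNHG15 over vector, of the compared genes of the chromosome 4 chemokine cluster (circles) and of other genes within 1 Mb (squares), by distance of the first base of the locus (on the plus strand) from that of CXCL1 in kb; bars are 95% counting intervals. The 6 chemokine genes lie below 0, with ratios from 0.386 for CXCL6 to 0.579 for CXCL5, while the squares lie on both sides of 0. CXCL6 reached the level for comparison through the vector library.

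Genes with these kappaB letters included lower and higher ones. Besides the 5 ligands and CXCL6, 147 genes had GGAATTTCC in a promoter window, and 48 of them were compared. Of these 4 were lower, 9 higher and 35 neither, with a median log2 ratio of 0.21. These were 8.33% lower and 18.8% higher, against 12.2% and 13.3% of all compared genes. The lower ones, named after their values were seen, were AGAP3, COBLL1, CRYBG1 and ITPA. The 9 higher ones included 2 genes of the pathway lists below, NFKBIZ (a ratio of 2.09) and MAP3K8 (2.002). This is a description of 2 libraries, and whether NF-kappaB was active in them was not measured.

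The messages of the ligand genes also share AU-rich letters in the 3′ UTR, a feature of short-lived cytokine messages. The pentamer ATTTA occurred 5 times in CXCL1, 10 times in CXCL2, 7 times in CXCL3, 11 times in CXCL5, 9 times in CXCL8 and 6 times in IL1B, in the GENCODE 29 transcript with the longest coding sequence. The median over 11358 compared genes was 2. CCL2, which was also lower, held 1, and IL1R1 and IL1RAP, with longer 3′ UTRs, held 8 and 4. The longer form TTATTTATT occurred in CXCL1, CXCL2, CXCL3, CXCL8 and IL1B, and in 8.20% of compared genes.

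Of the other IL-1 family ligands and receptors, 5 of 16 had values to analyse and 2 were compared, with 1 lower and 0 higher. SIGIRR, an inhibitory receptor of the family, had 639 counts against 1610 and was 2.18-fold lower (1.98 to 2.39). The decoy receptor IL1R2 had 0 counts against 10, at least 2.88-fold lower by the floor of 3 counts, and 1.94-fold by the nearer bound of its exact interval. The IL-18 receptor chain IL18R1 had 0 against 9, at least 2.59-fold lower by the floor and 1.70-fold by the interval, and IL37 had 0 against 2. Of 14 genes that process or release IL-1, 8 had values and 7 were compared, with 2 lower and 0 higher. These were 28.6% lower and 0% higher, against 12.2% and 13.3% of all compared genes. The calpain CAPN1, a protease able to cleave the IL-1 alpha precursor, was 1.79-fold lower (1.72 to 1.86), and GSDMD, whose pores release IL-1 beta, was 1.59-fold lower (1.498 to 1.69).

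Genes of IL-1 receptor signalling included lower and higher ones. Of 23 genes, 21 were compared, with 3 lower, 4 higher and 14 neither, and a median log2 ratio of 0.04. These were 14.3% lower and 19.0% higher, against 12.2% and 13.3% of all compared genes. The kinase IRAK2, which is itself induced by IL-1, was 1.92-fold lower (1.69 to 2.19). UBE2V1, a partner in ubiquitin chain assembly, was 2.003-fold lower (1.83 to 2.20), and IRAK4, the first kinase of the receptor complex, 1.84-fold lower at 23 counts against 49. The kinase MAP3K8 was 2.002-fold higher (1.39 to 2.92), and CHUK, the alpha subunit of the I-kappaB kinase, was 1.67-fold higher (1.25 to 2.24). UBE2V1 and CHUK overlap a gene of the same strand, so their reads may be divided. TAB3 and MAPK8 were the other higher genes, at 58 counts against 37 and 116 against 88.

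NF-kappaB subunits and inhibitors, like most compared genes, were mostly neither lower nor higher. Of 12 genes, 11 were compared, with 1 lower, 1 higher and 9 neither, and a median of 0.25. These were 9.09% lower and 9.09% higher, against 12.2% and 13.3% of all compared genes. TNFAIP3, the feedback inhibitor A20, was 1.503-fold lower (1.33 to 1.70), with 404 counts against 703. NFKBIZ, an atypical I-kappaB protein induced by IL-1, was 2.09-fold higher (1.80 to 2.43), with 502 counts against 278, and overlaps a gene of the same strand. For TNFAIP3 the ratio lay at the 1.5-fold line.

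Most other genes induced by IL-1 that were compared were lower. Of 32 genes, 24 had values and 21 were compared, with 13 lower, 1 higher and 7 neither. These were 61.9% lower and 4.76% higher, against 12.2% and 13.3% of all compared genes. Their median log2 ratio was −0.80, against 0.02 over all compared genes. The complement component C3 was 6.21-fold lower (5.82 to 6.63), with the caution that it overlaps a gene of the same strand. PTGES, the terminal enzyme of prostaglandin E synthesis, was 3.08-fold lower (2.96 to 3.20), with 3412 counts against 12149. LIF, leukaemia inhibitory factor, was 3.003-fold lower (2.845 to 3.17), and SERPINB2, an inhibitor of plasminogen activators, 2.98-fold lower (2.26 to 3.97). MMP10, a matrix metalloproteinase, had 0 counts against 6, and TNFAIP6, a hyaluronan-binding protein, 4 against 0. MMP9, counted among the lower genes at 17 counts against 39, reached the mean of 1 CPM through the vector library. It was named after its values were seen. The higher gene was NFKBIZ, and TNFAIP3, IRAK2, NFKBIA and NFKBIZ are in this list as well as in the lists of signalling or NF-kappaB genes. The list was chosen with earlier results of these data known.

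Of 26 other CXC and CC chemokines, 7 had values and 3 were compared, with 1 lower (CXCL6), 1 higher and 1 neither. CXCL6 reached the mean of 1 CPM through the vector library. Over all compared genes, 12.2% were lower and 13.3% higher. CXCL16, a membrane-anchored chemokine that binds CXCR6, was 2.07-fold higher (1.56 to 2.78), with 138 counts against 77, and overlaps a gene of the opposite strand. CCL20, which binds CCR6, had 0 counts against 7, at least 2.02-fold lower by the floor and 1.245-fold by its interval. In the other direction CXCL12, the ligand of CXCR4, had 4 counts against 0, with an interval of the ratio that included 1 (lower bound 0.764), and CCL22 had 3 against 0. Of 9 receptors, scavengers and surface proteoglycans that bind the chemokines, 3 were compared and 0 were lower or higher. The atypical receptor ACKR2, a scavenger of CC chemokines, had 0 counts against 10, at least 2.88-fold lower by the floor and 1.94-fold by its interval. CXCR1, CXCR2 and CCR2 were not analysed here.

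**Figure D4:**
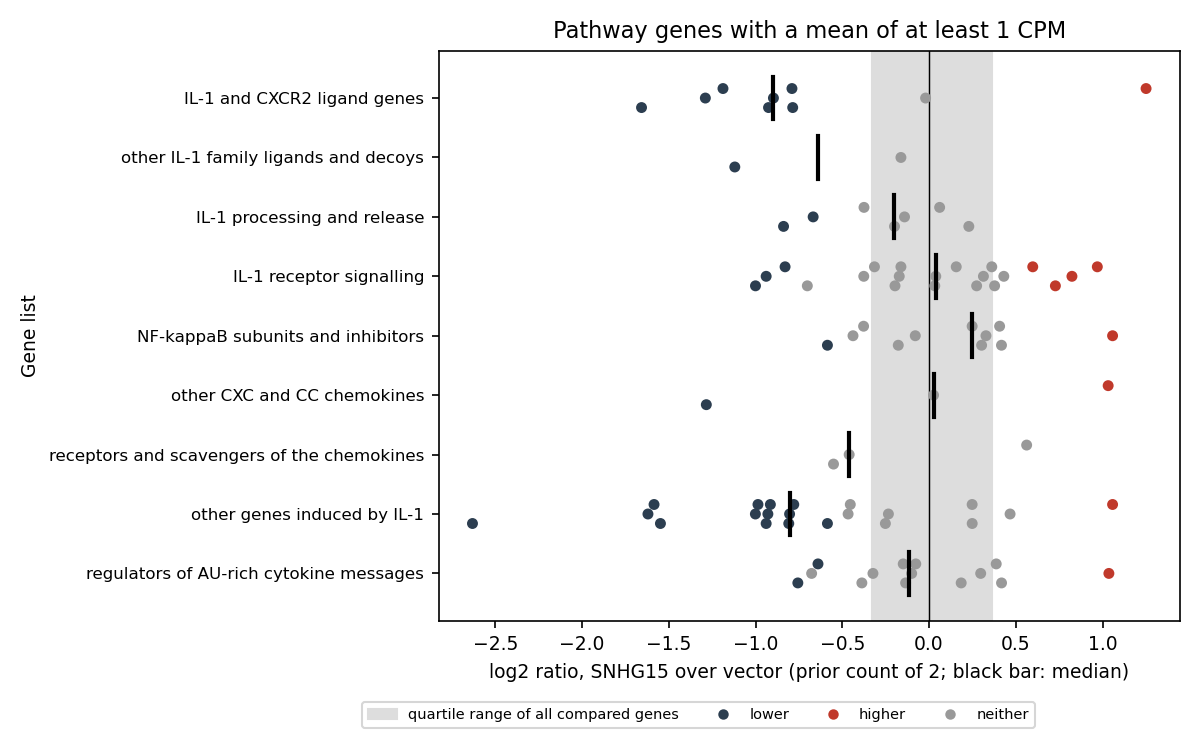
Log2 ratio, SNHG15 over vector (prior count of 2), of each compared gene of the pathway lists; the black bar is the list median, colours give the 1.5-fold call, and the grey band runs from the lower to the upper quartile of all compared genes. The medians of the IL-1 and chemokine genes (−0.90) and of other genes induced by IL-1 (−0.80) lie left of the band. So do those of other IL-1 family ligands and decoys (−0.64, 2 genes) and of receptors and scavengers (−0.46, 3 genes). The medians of receptor signalling (0.04), NF-kappaB genes (0.25) and the remaining lists lie inside it.

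Proteins that bind AU-rich cytokine messages were compared for 14 of 14 genes, with 2 lower, 1 higher and 11 neither, and a median of −0.12. These were 14.3% lower and 7.14% higher, against 12.2% and 13.3% of all compared genes. ZFP36, tristetraprolin, which speeds the decay of such messages, was 1.69-fold lower (1.52 to 1.89), with 505 counts against 989. Its relative ZFP36L1 was 2.05-fold higher (1.92 to 2.20), with 2281 counts against 1286. ZC3H12C, of the regnase family, was 1.58-fold lower, at 47 counts against 86.

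Cells of the blood also make IL1B and these chemokines, so their markers were read beside the result. Both libraries were from cultures of the BT549 line. Of 12 haematopoietic markers, 7 had values, and they summed to 26.6 CPM with SNHG15 overexpression and 31.0 CPM with the vector. Of these markers 3 were compared, with 1 lower, 1 higher and 1 neither, where 12.2% of all compared genes were lower and 13.3% higher. CD14, a monocyte receptor, was lower, at 133 counts against 347 (2.25-fold, 1.84 to 2.77), and S100A8 was 1.62-fold higher (1.33 to 1.97). CD163 and FCER1G were at 0 in the vector library, and PTPRC, the leukocyte common antigen, was not analysed here. Of 7 endothelial markers, 2 had values, at 0.232 and 3.75 CPM in sum, and TEK had 3 counts against 74, a ratio of 0.0469 (0.00946 to 0.143). TEK lay at the floor of 3 counts in the SNHG15 library and reached the mean of 1 CPM through the vector library. The part of other cells in the chemokine levels was not tested.

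In the authors' deposited table, IL1B, CXCL3 and CXCL8 were called lower and IL1RAP higher, and the other 6 genes were not called. The deposited log2 ratios of FPKM in the authors' deposited table were −1.55 for IL1B, −1.18 for CXCL3, −1.08 for CXCL8 and 1.39 for IL1RAP. CXCL1 was at −0.81 and CXCL2 at −0.78 in the authors' deposited table, short of a 2-fold difference. FPKM follows the library totals, which places these ratios higher than TMM scaling does.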

How the data were processed

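Total RNA of 2 cultures was sequenced with an Illumina kit, per the labels' protocols. For strand, aligner and counter, the sources used here give nothing. Loci are on hg38, per the submitters' processing notes. Raw counts were deposited by the authors as whole numbers per gene. FPKM values and the log2 ratio of FPKM were deposited by the authors beside them, with p-values deposited by the authors that were not used here. Another 2 deposited columns repeat the FPKM.

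From the counts, CPM used TMM factors of edgeR 4.0.16 (R 4.3.3). Ratios have exact conditional-binomial 95% intervals (scipy 1.17.1), which cover counting error only, as do the floors of 3 counts. A mean CPM of 1 or more was required of genes compared. Functions were tested on simulated data. Biotypes, 3′ UTRs and GC content came from GENCODE 29, which matched 18894 identifiers, and promoters from RefSeq (GRCh38.p14). Alternatives tried were library totals, DESeq2 1.42.0 size factors, a loess GC correction (span 0.5), other minimum levels, prior counts, call rules and FPKM.

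The members and lists were chosen with earlier results of these data known. Named genes were the 10 members and SNHG15, and of each other list up to 4 called genes per direction, by the interval bound nearest to 1, and genes at 0 counts could be named. Neighbouring genes, GATA3, MMP9, PTPRC, TMEM189-UBE2V1 and 4 genes with kappaB letters were named in addition. With 2 libraries every differing gene follows the same pattern, so no genes most like the members were named.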

Additional observations from a re-analysis of the deposited data

How the results depend on the processing

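The number of lower genes stayed at 7 of 9, and of higher genes at 1, with DESeq2 size factors, library totals, the GC trend removed and no minimum level or one of 5 CPM. With the whole interval beyond 2-fold these numbers were 2 and 0, and with a 2-fold point ratio without the interval 3 and 1, since a stricter fold calls fewer genes. The median log2 ratio of the 9 genes was −0.90. It was −0.78 by library totals, −0.76 by FPKM with a pseudocount of 1 and −0.78 by FPKM with a pseudocount of 0.1. Library totals moved the median of all compared genes from 0.02 to 0.13, by construction of that scaling. The pooled log2 ratio of CXCL1, CXCL2 and CXCL3 was −0.93, and −0.97 with DESeq2 size factors and −0.81 by library totals. The log2 ratio of a single gene left its counting interval in 1 of 9 genes with DESeq2 size factors, 2 of 9 by library totals and 1 of 9 with the GC trend removed, with 0 reversed among called genes. No paired analysis was possible because each group held 1 library. Depth limited IL1A, at 0 and 2 counts.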

Other observations

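Beyond the chemokines, the neighbourhood of the chromosome 4 cluster held 2 genes for ligands of the epidermal growth factor receptor, named after their values were seen. AREG, amphiregulin, had 2 counts with SNHG15 overexpression and 63 with the vector, a ratio of 0.0368 (0.00436 to 0.138). EREG, epiregulin, had 0 counts against 19, at least 5.47-fold lower by the floor of 3 counts in the SNHG15 library and 4.03-fold by the nearer bound of its exact interval. PARM1, a mucin-like membrane protein farther along the same arm, went the other way, at 185 counts against 35, a ratio of 6.12 (4.25 to 9.05). These values come from 1 library per group and have no replicate check.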
